A study of Mus musculus with 11 samples.

Results

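The genes described here serve protein folding and stress signalling in the endoplasmic reticulum (ER), the compartment in which secreted and membrane proteins are made. They are 37 genes listed by symbol for their known function, out of 56748 gene IDs in the deposited table. By role, 11 are stress sensors and their effectors, 11 are chaperones and co-chaperones, 6 form disulfide bonds, and 9 belong to ER-associated degradation (ERAD) or the translocon. All 37 passed the filter on low counts. The RNA was labelled as that of CD4 T cells from livers of mice that had received carbon tetrachloride (CCl4), a hepatocyte poison that leads to fibrosis, for 5 weeks. Of 11 libraries, 6 came from ATG5TLymph-/- mice, whose T lymphocytes lack the autophagy gene Atg5 (Atg5-deficient), and 5 from ATG5fl/fl mice that carry the floxed gene undeleted (wild-type). All mice of both groups had received CCl4, so no library shows an uninjured liver. The labels name no Cre line, strain, age or sex. They do not say that each library is 1 mouse, so the spread behind the p-values may be technical.

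Proteins that fail to fold in the ER are sensed by the membrane proteins ATF6, IRE1 (encoded by Ern1) and PERK (encoded by Eif2ak3), which start the unfolded protein response. ATF6 is cut in the Golgi to release a transcription factor, IRE1 splices Xbp1 mRNA into its active form, and PERK slows translation and raises ATF4 and CHOP (encoded by Ddit3). The response raises chaperones, disulfide-forming enzymes and ERAD, which carries misfolded proteins to the proteasome. Autophagy removes parts of the ER as well, and activated T cells enlarge their ER as they begin to divide and to secrete cytokines. Splicing of Xbp1, cleavage of ATF6 and phosphorylation of PERK cannot be read from counts per gene.

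Libraries held 30699408 to 47564440 counted reads. In CPM (counts relative to library size), 10 CD4 T cell markers summed to between 3080 and 4610. Hepatocytes are the main secretory cells of the liver, and 14 markers of theirs summed to between 55.1 and 1307 CPM. Atg5 itself was counted at 19.2 ± 2.51 CPM (SD, n = 6) in Atg5-deficient and 16.9 ± 3.59 CPM (SD, n = 5) in wild-type libraries. That is a log2 fold change of 0.18 (adjusted p = 0.488, edgeR). The labels do not name the deleted exons, and reads from the remaining exons count for the gene, so this value is no check of genotype.

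Most ER stress and folding genes did not pass the test between genotypes. Atf6, one of the 3 stress sensors, and Ero1l, an oxidase that drives disulfide formation, rose in Atg5-deficient libraries, and none of the 37 fell (edgeR quasi-likelihood test, adjusted p under 0.05). Those 2 of 37 genes are 5.41%, beside 6.84% of all 17987 genes tested that passed in either direction (4.43% higher and 2.41% lower). At an unadjusted p under 0.05 there were 9 higher members (24.3%) and 1 lower member (2.7%), beside 12.7% and 10.6% of all genes tested. The groups did not overlap in 2 members, Atf6 and Edem1, which compares with 4.86% of all genes. Positive log2 fold changes were seen in 29 of the 37 members, with a median of 0.15, whereas the median over all genes tested was -0.0027. With upper-quartile scaling, the members' median was 0.08 and that of all genes -0.07.

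**Figure D1:**
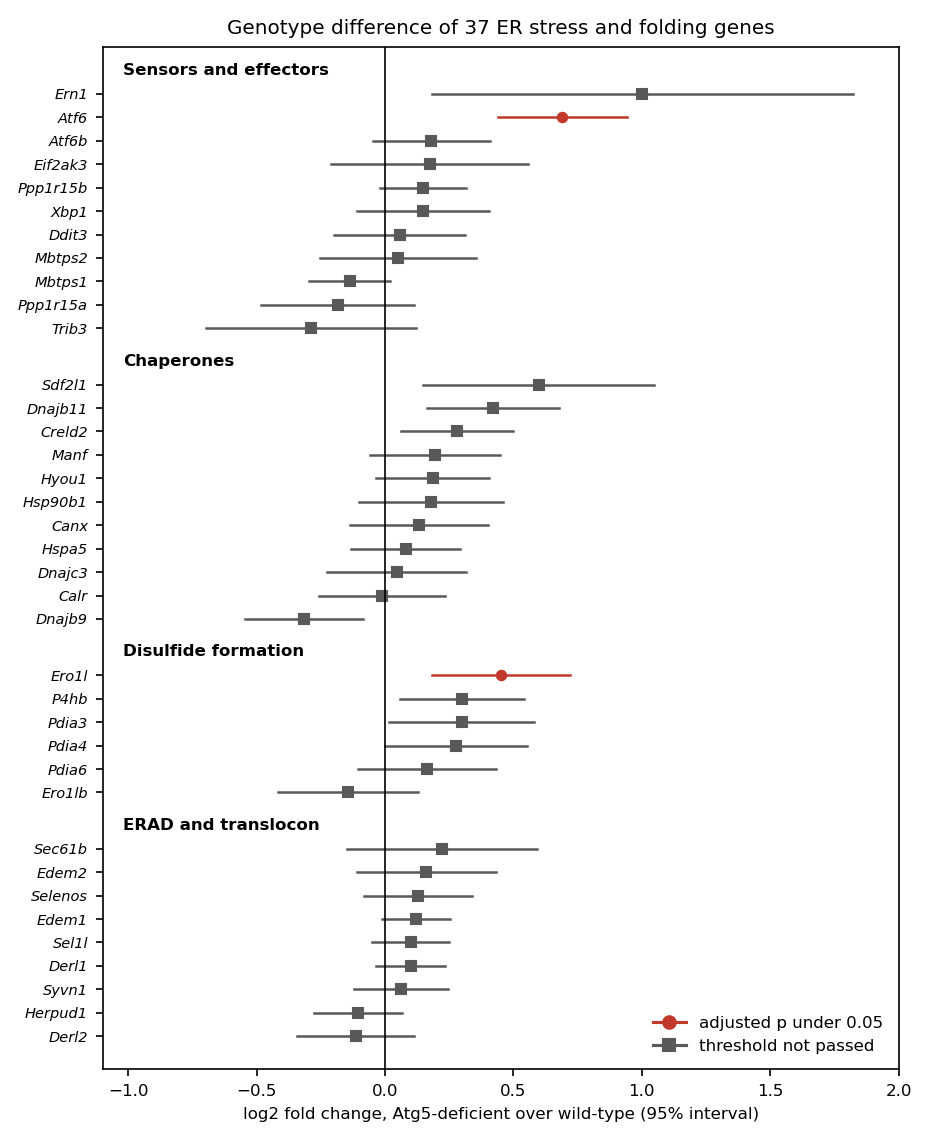
Log2 fold change of each of the 37 genes (Atg5-deficient over wild-type, horizontal axis) with its 95% interval, ordered within each role. Atf6 and Ero1l, the red circles, passed the threshold, and Ern1 has the highest value (1.002) with the widest interval.

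Among the sensors, Atf6 (ENSMUSG00000026663, chromosome 1, 170704674 to 170867771, minus strand, GRCm38) had 29.4, 34.0, 43.0, 39.0 and 37.7 CPM in wild-type libraries 1 to 5. Its Atg5-deficient libraries ran from 47.9 over a median of 59.5 to 72.2 CPM. All 6 therefore lay above every wild-type library. The log2 fold change was 0.69 (SE 0.12, adjusted p = 0.00624, edgeR), a 1.61-fold difference with a 95% interval of 1.36 to 1.92. Atf6 passed in all 21 alternative fits, among them each of the 11 that left out 1 library, with log2 fold changes between 0.62 and 0.77. Its exons overlap no other annotated gene. The related sensor gene Atf6b stood at 39.4 ± 5.06 against 34.7 ± 3.94 CPM (log2 fold change 0.18, adjusted p = 0.336). Mbtps1 and Mbtps2 encode the Golgi proteases that cut ATF6, and neither passed, with log2 fold changes of -0.14 and 0.05. Of the Mbtps2 exons, 28.4% are shared with Yy2 on the same strand, so its reads cannot be fully told apart from those of that gene.

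Ern1, which encodes the sensor IRE1, varied most between libraries. Wild-type libraries had 26.7, 24.4, 39.8, 30.5 and 30.9 CPM, and Atg5-deficient libraries 1 to 6 had 93.8, 45.5, 121.7, 32.3, 33.1 and 39.9 CPM. Libraries 1 and 3 stood far above the rest, and the other 4 reached 45.5 CPM at most. The log2 fold change of 1.002 (SE 0.37) did not pass (adjusted p = 0.132, edgeR) and was 0.68 without Atg5-deficient library 3. In the same order, the summed hepatocyte markers of the Atg5-deficient libraries were 1254, 1307, 977, 76.7, 166 and 316 CPM. The 3 libraries with the most Ern1 were thus the 3 with the most hepatocyte RNA, though the order within the 3 differed. Among wild-type libraries, library 3 had the most of these markers (764 CPM) and the most Ern1 (39.8 CPM). Wild-type library 2, at 504 CPM of these markers, had the lowest Ern1 of all (24.4 CPM). With the hepatocyte sum as a covariate the log2 fold change of Ern1 was 0.68 (adjusted p = 0.240, edgeR). The part of hepatocyte RNA in the Ern1 values was not tested. Ern1 lies 92.8 kilobases from the growth hormone gene Gh on chromosome 11. Gh had 2954 counts over the Atg5-deficient and 2 over the wild-type libraries, and its counts in Atg5-deficient libraries 1 to 6 were 317, 516, 271, 374, 523 and 953. These Gh counts are not scaled to library size, which was lowest in library 3 (30699408 reads). A link between Ern1 and Gh was not tested.

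Eif2ak3, which encodes PERK, stood at 67.0, 54.7, 63.2, 70.2 and 60.0 CPM in wild-type and between 52.2 and 116 CPM (median 63.5) in Atg5-deficient libraries. Library 3 alone, at 116 CPM, set the upper end, and without it the log2 fold change went from 0.17 to -0.02. Members downstream of PERK and ATF4 did not pass. Ddit3, which encodes the death-promoting factor CHOP, had 13.2 to 16.7 CPM (median 15.4) against 13.4, 16.4, 16.8, 14.9 and 11.4 CPM. The groups overlap fully, and the 95% interval of the Ddit3 fold was 0.87 to 1.24. A second, 105-base gene ID of Ddit3 lies within it and had 766 counts in all. Ddit3 also shares 3.97% of its exon bases with the more highly counted Mars on the other strand. Trib3, an inhibitory pseudokinase that CHOP induces, was among the lowest members at 3.09 ± 0.443 against 3.77 ± 0.562 CPM (log2 fold change -0.29, adjusted p = 0.396). Ppp1r15a and Ppp1r15b, which encode subunits of the phosphatase that restores translation after PERK, had log2 fold changes of -0.18 (adjusted p = 0.467) and 0.15 (adjusted p = 0.271). Xbp1, the target of IRE1, was counted at 40.3 ± 6.90 against 36.4 ± 3.45 CPM (log2 fold change 0.15, adjusted p = 0.503), which says nothing of its spliced form.

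**Figure D2:**
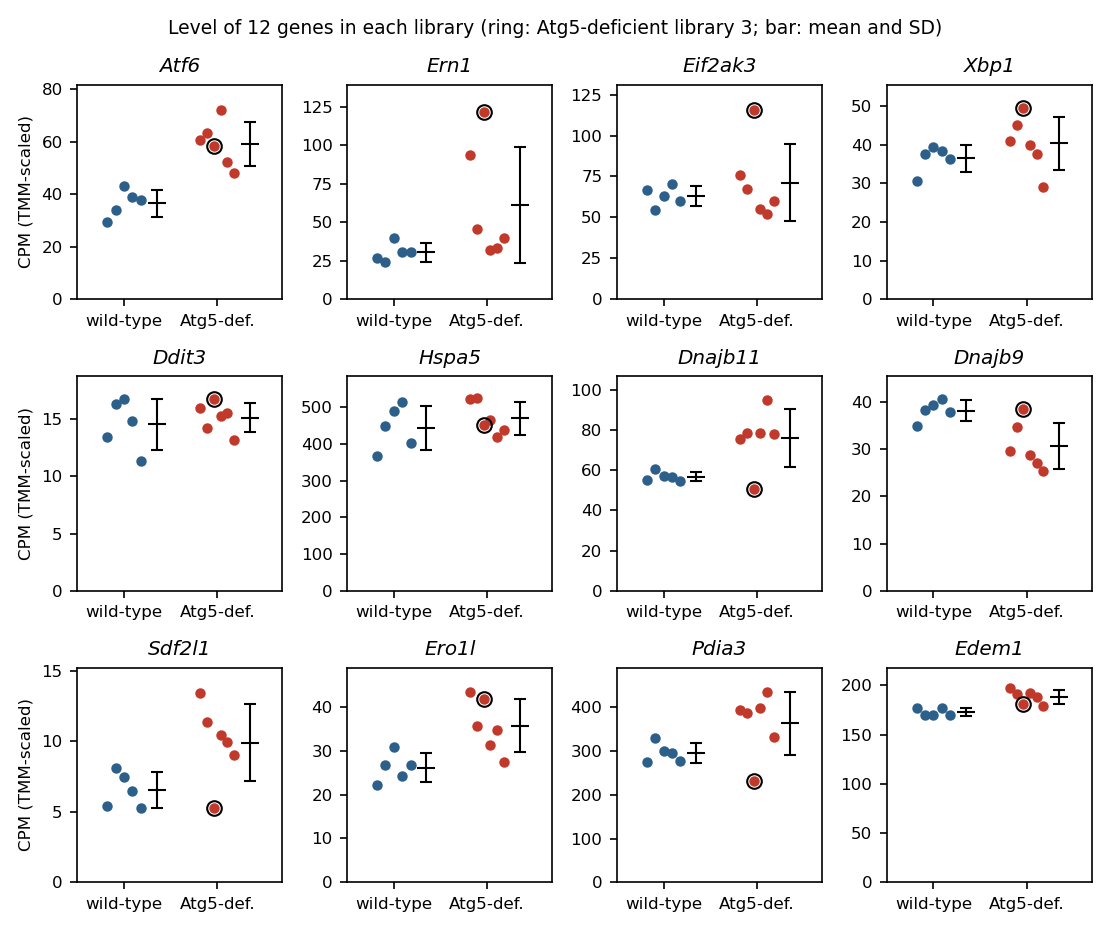
CPM (scaled by TMM factors, from 0) of 12 of the genes in each library, wild-type in blue and Atg5-deficient in red, with the mean and SD beside each group and a ring around Atg5-deficient library 3. The groups are apart for Atf6, 47.9 to 72.2 against 29.4 to 43.0 CPM, and narrowly for Edem1, and overlap for the other 10 genes.

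Several chaperone genes carry the ER stress element (ERSE) just before their start. It is the motif that ATF6 and XBP1 bind together with the CCAAT factor NF-Y, and reads CCAAT, 9 bases of any kind, then CCACG. Promoters were taken from RefSeq (GRCm38.p6) for 32 of the 37 genes, 2 of them under a newer symbol, and the 250 bases before the start were searched on both strands. Atf6, Ppp1r15b, Hyou1, Manf and Derl1 were not matched. The exact ERSE was found in 9 of 32 members (28.1%) and in 35 of 27025 RefSeq genes (0.13%). The 35 include these 9, and the members were listed for their known function, so the shares are a description and no test. The stretches are shown because they are the motif, among the 4 searched, that most members share, on the strand of the gene, with the fixed letters of the motif in capitals. Read on the other strand, the motif begins with CGTGG and ends with ATTGG.
Hspa5 (chr2:34772020-34772048, plus strand): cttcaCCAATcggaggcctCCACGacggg
Hsp90b1 distal (chr10:86705633-86705661, minus strand): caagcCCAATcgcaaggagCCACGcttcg
Hsp90b1 proximal (chr10:86705528-86705556, minus strand): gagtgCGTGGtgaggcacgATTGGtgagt
Calr (chr8:84847070-84847098, minus strand): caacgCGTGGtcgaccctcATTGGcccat
Canx (chr11:50325795-50325823, minus strand): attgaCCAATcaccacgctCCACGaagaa
Dnajc3 (chr14:118937822-118937850, plus strand): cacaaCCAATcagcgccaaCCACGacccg
Creld2 (chr15:88819515-88819543, plus strand): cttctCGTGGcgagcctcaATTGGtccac
Pdia6 (chr12:17266486-17266514, plus strand): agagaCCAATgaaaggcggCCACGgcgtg
Ero1lb (chr13:12565677-12565705, plus strand): ggcctCGTGGtcccgcctcATTGGccgcc
Syvn1 (chr19:6046527-6046555, plus strand): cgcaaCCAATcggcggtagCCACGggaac

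The motifs of these 9 genes begin between 212 (Hsp90b1, distal) and 44 (Syvn1) bases before the RefSeq start. None of the 9 passed the test, beside 6.84% of all genes tested, and their log2 fold changes ran from -0.14 to 0.28 with a median of 0.08. At that share, 0 calls among so few genes do not tell them apart from the rest. The 23 members with a promoter and no ERSE had a median of 0.15. Among 10 other tested genes with an ERSE, such as Derl3 and the glycosylation gene Alg12, none passed either, with a median of -0.08. Herpud1, an ERAD gene, had the shorter ERSE-II, in which ATTGG and CCACG are 1 base apart, 52 to 42 bases before its start. That motif was in 0.037% of RefSeq genes.
Herpud1 (chr8:94386372-94386392, plus strand): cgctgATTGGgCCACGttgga

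Herpud1 was also the only member with TGATGNAA, the core bound by ATF4 and CHOP (3.91% of RefSeq genes), and no member had TGACGTGG, a core of XBP1 and ATF6 sites (0.603% of RefSeq genes). A match is a description of letters, and variants of these motifs were not searched.

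Hspa5, which encodes BiP, the main ER chaperone and the usual readout of the response, did not pass. Wild-type libraries had 368, 449, 489, 515 and 402 CPM, and Atg5-deficient libraries 418 to 524 CPM with a median of 459. The groups overlapped over most of their range, and the 95% interval of the fold was 0.91 to 1.23. The other large chaperones did not pass either. Hsp90b1, which encodes the chaperone GRP94, had a log2 fold change of 0.18 (adjusted p = 0.453), and Hyou1, an exchange factor of BiP, one of 0.19 (adjusted p = 0.298). Calr and Canx encode the lectins calreticulin and calnexin, which hold glycoproteins while they fold. Calr was counted at 401.5 ± 52.4 against 405 ± 62.4 CPM (95% interval of the fold 0.84 to 1.18), and Canx at 289 ± 55.0 against 264 ± 26.7 CPM.

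The co-chaperones differed in sign. Dnajb11, which encodes the BiP partner ERdj3, had 55.1, 60.5, 57.3, 56.7 and 54.6 CPM in wild-type libraries and 75.7, 78.6, 50.6, 78.6, 94.9 and 78.0 CPM in Atg5-deficient libraries 1 to 6. Of the 6, 5 stood above every wild-type library, and library 3 below all of them. The log2 fold change was 0.42 (SE 0.12) with an adjusted p of 0.0506 (edgeR), and it passed in 8 of the 21 alternative fits. Sdf2l1, which keeps BiP clients soluble together with ERdj3, showed the same order, with 5 Atg5-deficient libraries at 9.01 to 13.4 CPM and library 3 at 5.28 CPM, against 5.30 to 8.13 CPM in wild-type. The log2 fold change of Sdf2l1, 0.60 (SE 0.21), did not pass (adjusted p = 0.0991). Creld2, an ER protein induced by stress, had 0.28 (adjusted p = 0.112).

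Dnajb9, which encodes ERdj4, a repressor of IRE1 and itself a target of XBP1, stood on the other side. It had 34.8, 38.2, 39.3, 40.6 and 37.8 CPM in wild-type and 25.4 to 38.5 CPM (median 29.1) in Atg5-deficient libraries, of which 5 lay below every wild-type library and library 3 within their range. The log2 fold change of -0.32 (SE 0.11) did not pass (adjusted p = 0.0887). Dnajc3, an inhibitor of PERK, and Manf, a secreted stress-protective protein, had log2 fold changes of 0.04 and 0.19, neither past the threshold. Manf shares 4.14% of its exon bases with the more highly counted Dcaf1 on the other strand.

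Genes of disulfide formation had the highest median of the 4 roles (0.29), with 5 of 6 members positive and 1 called. That is 16.7% of so few genes, beside 6.84% of all genes tested. Ero1l, which encodes the oxidase that recharges the disulfide isomerases, was counted at 22.2, 26.8, 30.9, 24.2 and 26.7 CPM in wild-type libraries. Its Atg5-deficient libraries ran from 27.4 over a median of 35.1 to 43.4 CPM, and 5 of 6 stood above every wild-type library. The log2 fold change was 0.45 (SE 0.13, adjusted p = 0.0461, edgeR), with a 95% interval of the fold from 1.13 to 1.65. This call was close to the threshold. When each of the 11 libraries was left out in turn, Ero1l passed in 2 of the fits, those without Atg5-deficient library 6 and without wild-type library 3. The adjusted p ran from 0.0199 to 0.108 over these fits. The paralog Ero1lb was lower in mean, at 14.3 ± 1.71 against 15.8 ± 2.48 CPM, and did not pass (log2 fold change -0.14). The 4 isomerases did not pass in the fit of all libraries either: P4hb (0.30, adjusted p = 0.123), Pdia3 (0.30, adjusted p = 0.191), Pdia4 (0.28, adjusted p = 0.213) and Pdia6 (0.16, adjusted p = 0.474). Pdia3, the partner of calnexin, had 273, 328, 299, 296 and 277 CPM in wild-type libraries. Atg5-deficient libraries 1, 2, 4, 5 and 6 had 394, 387, 397, 435 and 332 CPM, all above them, and library 3 had 230 CPM, below them.

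ERAD and translocon genes had the narrowest range of fold changes of the 4 roles. Of these genes 0 of 9 were called, beside 6.84% of all genes tested, and 0 had an unadjusted p under 0.05 (edgeR). DESeq2 and limma-voom likewise called 0 of them. Their log2 fold changes lay between -0.11 and 0.22. Edem1, which picks misfolded glycoproteins for degradation, had 177, 170.1, 169.6, 177.5 and 170.0 CPM in wild-type and 179.5 to 197 CPM in Atg5-deficient libraries. The groups did not overlap, yet the difference was small (log2 fold change 0.12, 95% interval of the fold 0.99 to 1.19, adjusted p = 0.255). Sel1l and Syvn1 encode the adaptor and the ubiquitin ligase of the main ERAD complex, and the 95% intervals of their folds were 0.97 to 1.19 and 0.92 to 1.19. Derl1 and Derl2, membrane proteins of the exit channel, had log2 fold changes of 0.10 and -0.11. Derl2 shares 2.87% of its exon bases with Mis12 on the other strand. Herpud1, among the most stress-inducible genes of ERAD, was at 54.0 ± 5.31 against 58.1 ± 2.22 CPM (interval of the fold 0.83 to 1.05). Edem2, Selenos, which encodes a selenoprotein of the exit complex, and Sec61b, a subunit of the translocon, had log2 fold changes of 0.16, 0.13 and 0.22 with adjusted p of 0.477 or more.

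Atg5-deficient library 3 held most of the low values of its group among chaperones. It was the lowest of its group in 9 of 11 chaperones, 3 of 6 genes of disulfide formation and 4 of 9 ERAD genes, and the highest of its group in 5 of 11 sensors and effectors. Its mean chaperone level, 6.33 on the log2(CPM + 1) scale, was below all wild-type libraries (6.34 to 6.64), and Atg5-deficient libraries 1, 2, 4 and 5 were above all of them (6.72 to 6.80). Library 6 lay between, at 6.50. In genes of disulfide formation libraries 3 and 6 were alike, with means of 6.13 and 6.15, both within the wild-type range of 6.01 to 6.18. For sensors and effectors its mean, 5.84, was the highest of all libraries. Without this library, Dnajb11 (log2 fold change 0.51, adjusted p = 0.00127), Sdf2l1 (0.73, adjusted p = 0.0117), Pdia3 (0.40, adjusted p = 0.00842) and Pdia4 (0.36, adjusted p = 0.0249) rose beside Atf6. Dnajb9 fell (-0.39, adjusted p = 0.0152), and Ero1l missed the threshold (0.40, adjusted p = 0.0518). Members called then numbered 5 higher and 1 lower of 37, with 12.1% of all genes called in that fit. Library 3 was picked out by the levels of these same members, so that fit is no separate support for them. The fits that left out any other library called 1 or 2 members. Among wild-type libraries, library 1 was the lowest in 19 of 37 members. These held 7 of 11 chaperones and 5 of 6 genes of disulfide formation. Without wild-type library 1, Ero1l did not pass (0.40, adjusted p = 0.108, edgeR).

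**Figure D3:**
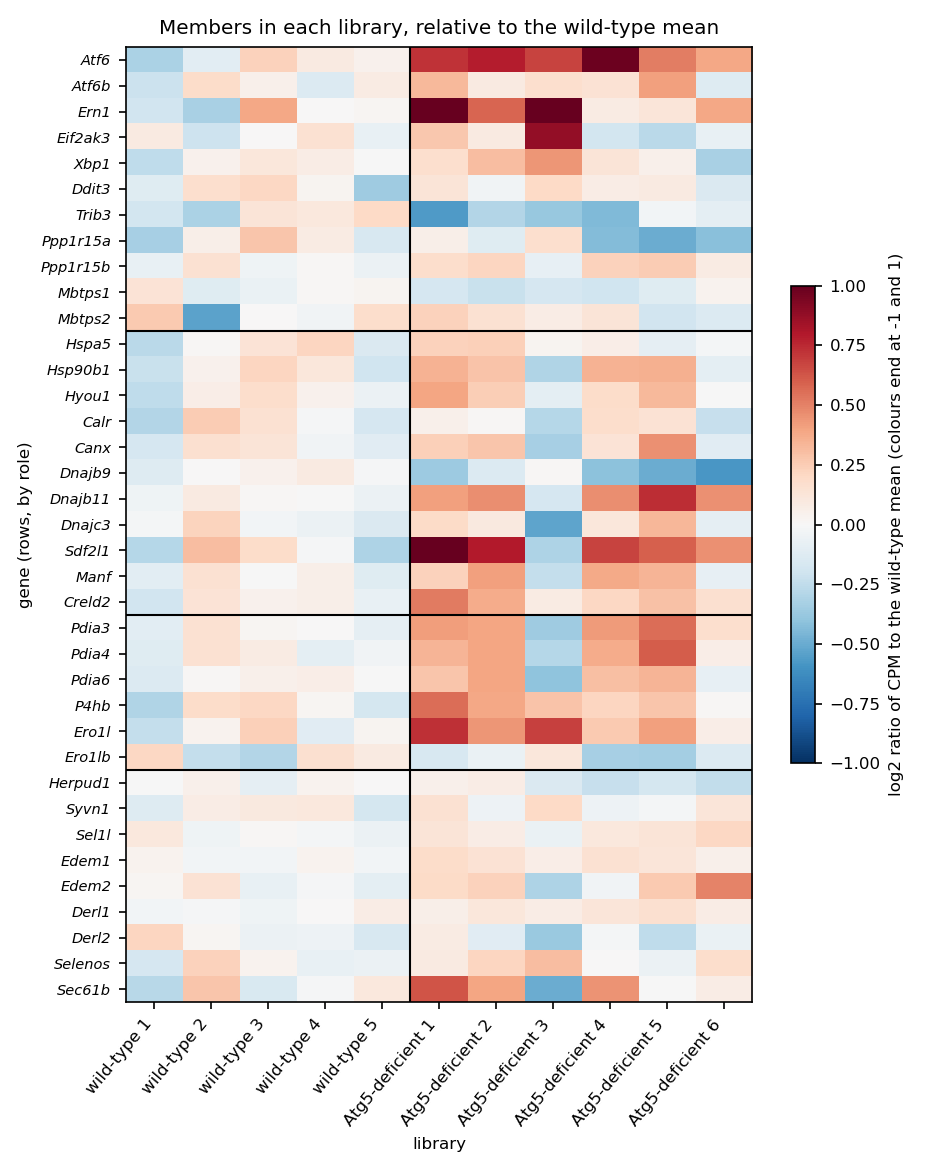
Log2 ratio of the CPM of each of the 37 genes (rows, by role from sensors at the top to ERAD at the bottom) to the wild-type mean, in each library (columns). Atg5-deficient library 3 is blue in most chaperone rows and red for Ern1 and Eif2ak3, and Atf6 is red in all 6 Atg5-deficient libraries.

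Genes of the cell cycle were also lowest of the Atg5-deficient group in library 3. On the same scale the mean of 20 cell cycle genes was 3.90 in Atg5-deficient library 3 and 4.84 to 5.20 in the other 5. Wild-type libraries had 3.84 to 4.29, a range that holds library 3. Of these 20 genes, 11 rose (55%) and none fell, beside 4.43% higher and 2.41% lower of all genes tested. Library 6 had a cell cycle mean of 4.94 and a chaperone mean of 6.50, the latter within the wild-type range. The part of dividing cells in the levels of folding genes was not tested.

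**Figure D4:**
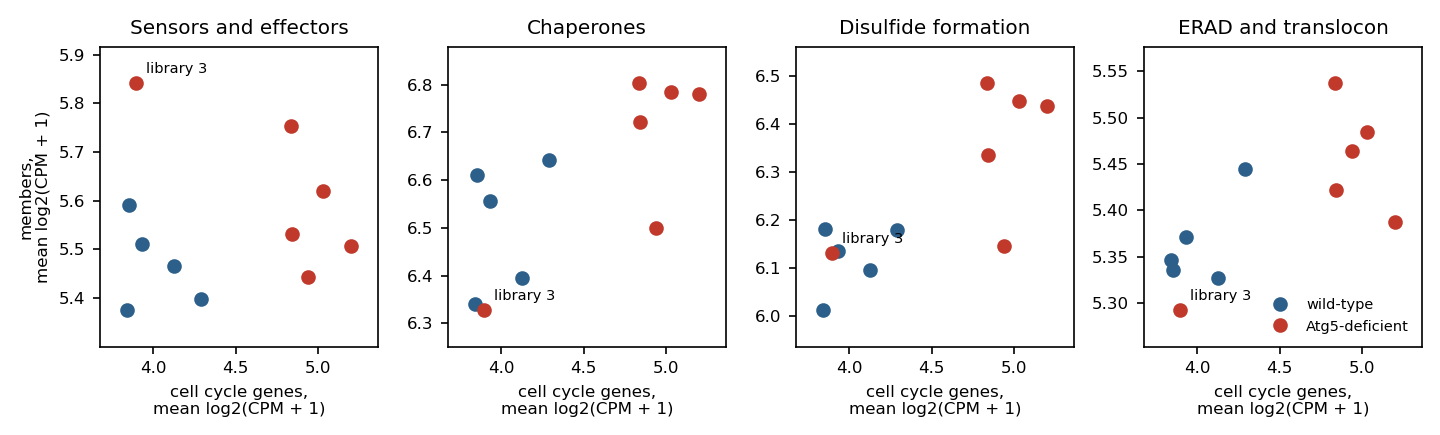
Mean log2(CPM + 1) of the members of each role (vertical axis, 1 panel per role) against that of 20 cell cycle genes (horizontal axis), 1 point per library, wild-type in blue and Atg5-deficient in red. Library 3 lies among the wild-type libraries on the horizontal axis, is lowest for chaperones at 6.33 and highest for sensors and effectors at 5.84.

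Levels between genes were compared per kilobase of exon. Ppp1r15a was the most abundant member at 167 CPM per kilobase over all libraries, ahead of Calr (140), Hsp90b1 (112), Hspa5 (108) and Pdia3 (106). P4hb, Canx and Pdia4 followed at 60.6, 59.2 and 47.4 CPM per kilobase. The sensors were far less abundant, with 11.2 CPM per kilobase for Eif2ak3, 5.77 for Ern1 and 5.29 for Atf6. Mbtps2 and Trib3 were the lowest at 1.37 and 1.60 CPM per kilobase. Spread between libraries was larger among Atg5-deficient than wild-type libraries in 25 of 37 members (67.6%), near the 64.4% seen over all genes tested. The median SD on the log2 scale was 0.27 against 0.15 in chaperones, 0.28 against 0.15 in genes of disulfide formation, 0.14 against 0.09 in ERAD genes and 0.21 in both groups for sensors and effectors. Over all genes tested it was 0.34 against 0.27.

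Other genes of the ER pathway, from 7 lists chosen for function, were also mostly not called, with 10 higher and 1 lower of 194 tested (5.67%, median 0.12). Over all genes tested the share called was 6.84%. At an unadjusted p under 0.05 (edgeR) 46 of the 194 were higher and 5 lower, beside 12.7% and 10.6% of all genes tested. Log2 fold changes were positive in 141 and negative in 53 of the 194. None of 25 other regulators of the response passed (edgeR, 5 higher and 0 lower at an unadjusted p under 0.05). Atf4, the factor downstream of PERK, stood at 212 ± 28.5 against 217 ± 13.9 CPM (log2 fold change -0.04, adjusted p = 0.861), and Atf3, a stress-induced factor, had 0.56 (adjusted p = 0.537). Of 26 targets of ATF4 and CHOP, Wars, a tRNA synthetase gene (log2 fold change 0.54, adjusted p = 0.0214), and Ndrg1 (0.56, adjusted p = 0.0388) rose. Wars passed in 9 and Ndrg1 in 3 of the 11 fits that each lacked a library. The other 24 did not pass.

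Among 37 other ER chaperones and isomerases, 4 rose: Qsox1 (0.33, adjusted p = 0.0258), a sulfhydryl oxidase, Dnajc1 (0.32, adjusted p = 0.0355), Txndc5 (0.39, adjusted p = 0.0440), a disulfide isomerase, and Hspa13 (0.41, adjusted p = 0.0467). Those 4 are 10.8% of the list, beside 6.84% of all genes tested (4.43% higher). They passed in 4, 4, 3 and 2 of the 11 fits that each lacked a library. Dnajc1 shares 6.43% of its exon bases with Mllt10 on the other strand. Of 38 genes of translocation and glycosylation, Sec11c, a subunit of signal peptidase, rose from 57.6 ± 4.36 to 78.0 ± 8.89 CPM (0.44, SE 0.09, adjusted p = 0.0134) and passed in all 11 of those fits. Stt3b, a catalytic subunit of the enzyme that attaches glycans, fell from 171 ± 21.4 to 119 ± 19.7 CPM (-0.52, SE 0.12, adjusted p = 0.0182) and passed in 9. The channel gene Sec61a1 (0.34, adjusted p = 0.0424) was the 1 called of 31 other ERAD and channel genes, and Sec24d (0.48, adjusted p = 0.0342) the 1 of 25 genes of COPII transport, which carries cargo out of the ER. Each of these passed in 3 of the 11 fits.

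Receptors through which autophagy takes up ER were measured as well. Rtn3, the receptor for ER tubules, rose from 47.9 ± 3.07 to 61.8 ± 5.43 CPM (0.37, SE 0.08, adjusted p = 0.0175). All 6 Atg5-deficient libraries (56.0 to 70.4 CPM) were above every wild-type library (42.4 to 49.6 CPM). Rtn3 passed whichever of the 11 libraries was left out. Retreg1, the receptor for ER sheets, stood at 131 ± 10.7 against 143 ± 5.56 CPM (-0.13, adjusted p = 0.316). The other 11 of 12 genes of this list did not pass, so 8.33% were called, beside 6.84% of all genes tested.

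Markers of other cells were summed in each library, since plasma cells and hepatocytes are rich in ER genes. In bulk RNA, fewer cells of a type and less RNA per cell cannot be told apart. The 17 plasma cell markers summed to 325 to 463 CPM in Atg5-deficient and 247 to 363 CPM in wild-type libraries (adjusted p = 0.0455, exact permutation over 462 splits, two-sided, over 14 lists). Without Xbp1, Prdm1, Irf4 and Derl3, of which the first 3 are also used by T cells, the ranges were 158 to 288 and 161 to 252 CPM. Within the list, Mzb1 and Tnfrsf17 reached at most 0.531 and 0.351 CPM in any library, and Jchain 6.06 CPM. Some immunoglobulin genes had more. Ighm lay at 118 to 251 CPM in Atg5-deficient libraries, against 153 to 218 CPM. The highest Atg5-deficient and wild-type libraries had 31.6 and 15.1 CPM of Igkc, 30.6 and 9.04 CPM of Igha, and 13.4 and 0.176 CPM of Ighg1. Hepatocyte markers (76.7 to 1307 against 55.1 to 764 CPM, adjusted p = 0.451, exact permutation) and the 10 B cell markers (17.5 to 51.8 against 14.0 to 30.3 CPM, adjusted p = 0.248, exact permutation) did not pass. With the hepatocyte sum as a covariate, the log2 fold change of Atf6 was 0.68 (adjusted p = 0.00836) and that of Ero1l 0.38 (adjusted p = 0.0591). The sum of B and plasma cell markers, without Xbp1, Prdm1, Irf4 and Derl3, was also used as a covariate. The log2 fold changes of Atf6 and Ero1l were then 0.77 (adjusted p = 0.00445) and 0.57 (adjusted p = 0.0155, edgeR).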

How the data were processed

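Total RNA libraries of cells labelled as liver CD4 T cells were sequenced. The extraction protocol in the labels describes sections of fixed, paraffin-embedded blocks, whereas the design text describes cells sorted by flow cytometry, and the sources used here do not settle which holds. The authors deposited raw counts of reads per Ensembl gene, for which the submitters' processing notes name STAR, featureCounts and GRCm38. Tool versions, gene annotation, strandedness and the treatment of multimapping reads: not given in the sources used here. Counts of genes that overlap on opposite strands may therefore hold reads of each other.

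IDs were matched to GENCODE M21 (GRCm38). Of 56748 IDs, 52125 (91.9%) matched, with 89.3% to 96.5% of the reads of a library. Ddit3 has 2 IDs, of which the longer was used. The table held 0 columns of other samples. Libraries held between 30699408 and 47564440 counts, and 3 counts equal 0.0631 to 0.0977 CPM. Replicates were numbered in accession order. For pairs of libraries in the same group, the chi-square of their counts was 14.1 to 188 per degree of freedom, so no pair was 1 library deposited again.

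After filterByExpr (minimum count 10 and total 15) and TMM scaling, genotype was tested with the robust quasi-likelihood F test of edgeR. P-values were adjusted by Benjamini-Hochberg over 17987 genes, with a threshold of 0.05. SEs and 95% intervals were derived from the F statistic. CPM of genes are TMM-scaled, and marker sums use total counts and exact permutation tests over libraries. Versions used: edgeR 4.0.16, DESeq2 1.42.0 and limma 3.58.1 under R 4.3.3. The members and lists were chosen with earlier results of these data known, and counts over them are descriptions without a test. Named genes are all 37 members, Atg5, Atf4, Atf3, Retreg1, Sec61a1, and up to 5 called genes of each pathway list. Marker genes, Gh, and the genes that overlap a member or share its motif are named beyond that rule. Alternatives were other scalings (relative log expression, upper quartile), limma-voom with quality weights, DESeq2, no or a strict low-count filter (1 CPM in every library of a group), library sizes without genes of other cells, marker sums as covariates, the 8 libraries whose titles are numbered consecutively, and each library left out in turn.

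The 14 marker lists were CD4 T cell (3134 to 4610 CPM in Atg5-deficient against 3080 to 3393 CPM in wild-type libraries), B cell, plasma cell, hepatocyte, macrophage (5.73 to 20.8 against 10.2 to 15.2), dendritic cell (87.9 to 170 against 57.9 to 81.9), neutrophil (0.0521 to 0.631 against 0 to 0.411, with Retnlg at 0 throughout), NK cell and ILC (68.3 to 272 against 57.1 to 76.0), CD8 T cell (4.10 to 6.33 against 4.48 to 6.55), endothelial (126 to 204 against 126 to 228), stellate cell and fibroblast (2.22 to 6.54 against 2.15 to 7.00), cholangiocyte (3.59 to 102 against 4.08 to 7.52), erythroid (2.08 to 11.4 against 3.54 to 13.3) and cell cycle (685 to 1441 against 610 to 785). The lists of plasma cells, dendritic cells, NK cells and the cell cycle passed (adjusted p = 0.0455 for each, exact permutation). The lists of dendritic and NK cells hold genes that activated T cells also express. In the endothelial list Pecam1 reached 223 CPM and Stab1 13.7 CPM, and the rest at most 1.61 CPM. In the cholangiocyte list Spp1 reached 96.3 CPM and Epcam 7.27 CPM, and the rest at most 2.21 CPM.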

Additional observations from a re-analysis of the deposited data

Results flagged for a closer look

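Each member was examined for a library far from the others of its group, in 74 groups, of which chance flags about 1 in 20. Mbtps1 was the 1 flagged. Atg5-deficient library 6 had 177 CPM, and the nearest of the other 5 had 159 CPM, a gap of 0.637 of the range of the group against a critical value of 0.625.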

How the results depend on the processing

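Atf6 kept its call in all 21 alternatives. Ero1l kept it in 9, and lost it with upper-quartile scaling (0.38), with the hepatocyte covariate (0.38), in the 8 consecutively numbered libraries (0.46) and in 9 fits without 1 library. Of the members, 1 was called higher with upper-quartile scaling and in the 8 libraries, 4 with DESeq2, 10 with limma-voom, and 1 to 5 without 1 library. Called lower was Dnajb9 alone, which makes 1 with limma-voom, 1 with the hepatocyte covariate and 0 to 1 without 1 library. Over all genes, 1231 were called, 2385 with DESeq2, 3426 with limma-voom, 176 in the 8 libraries, and 642 to 2143 without 1 library. With upper-quartile scaling 46.0% of called genes were higher, against 64.7%. The cause of these differences was not tested.

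Signs changed in members without a call. With upper-quartile scaling Ddit3 was -0.0119, Mbtps2 -0.0167, Dnajc3 -0.0291 and Syvn1 -0.0043. In the 8 libraries Ddit3 was -0.0387, Hspa5 -0.0202 and Syvn1 -0.0384. Calr was 0.0989 with limma-voom and 0.0737 with the B and plasma cell covariate. Leaving out 1 library at a time gave log2 fold changes of -0.0206 to 0.249 for Eif2ak3, -0.0184 to 0.116 for Ddit3, -0.0499 to 0.125 for Mbtps2, -0.0201 to 0.135 for Dnajc3 and -0.0749 to 0.0659 for Calr. The difference of marker sums (Atg5-deficient minus wild-type) then ran from -2.445 to 0.573 CPM for macrophages, -0.329 to 0.190 CPM for CD8 T cells and -1.615 to 0.921 CPM for erythroid cells. No paired analysis was possible because the labels give no replicate numbers that the groups share. The depth sets no limit on the members, whose lowest count in a library was 92 (Trib3).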
